A study of Mus musculus with 16 samples.

Results

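Imprinted genes are a small group in which one parental copy is silenced by marks laid down in the egg or the sperm. Here a list of 37 of them known from the mouse, split by the parental copy known to be active, was followed through single embryos of the mouse at embryonic day 9.5. Of the 26411 genes listed in the count data, 35 members were found under their own symbol and 2 by Entrez identifier, Nespas (listed as Gnasas1) and Zrsr1 (listed as Zrsr2-ps1). The list holds 17 maternally and 20 paternally expressed genes, and 15679 genes of the whole data set passed the filter on low counts, among them 17 maternal and 18 paternal members. The 2 members that did not pass were Snrpn and Rasgrf1. Copg2, Ppp1r9a, Grb10, Ube3a, Gnas, Dcn and Kcnq1, counted here as maternal, are imprinted only in some tissues or depending on the promoter.

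RNA was sequenced from 16 whole embryos, 4 of each of 4 genotypes, with 2 females and 2 males per genotype. The wild type embryos were Kat6a+/+Kat6b+/+. The Kat6a-/-Kat6b+/+ embryos, called knockout below, carried no functional copy of Kat6a, which encodes a histone acetyltransferase, through a deletion of exons 5 to 9. Those labelled Kat6a+/+Tg(Kat6b), called transgenic, carried the bacterial artificial chromosome RP23-360F23, which holds Kat6b, the paralogue of Kat6a, at 7 copies from 1 founder line, and those labelled Kat6a-/-Tg(Kat6b), called knockout transgenic, combined the deletion with the transgene. All were hybrids of FVB and BALB/c. The wild type embryos came 1 each from litters 801, 803, 2597 and 2598. The knockout embryos came from litters 801 and 803 and the transgenic embryos from litters 2597 and 2598. The knockout transgenic embryos came from litters 483 and 498, so that the genotype and the litter of this last group cannot be told apart. Wild type embryos of litters 801 and 803 were male and those of litters 2597 and 2598 female. Knockout embryos of litter 801 were female and those of litter 803 male. In wild type and in knockout embryos sex and litter therefore cannot be told apart. Fits without the knockout embryos of litter 801 hold no female knockout embryo.

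Libraries held 14407277 to 45665680 counts. Kat6b stood at 42.6 to 51.0 CPM (a gene's counts relative to the library's total, with totals scaled by trimmed mean of M values) in the 8 embryos without the transgene and at 155 to 227 CPM in the 8 with it. Total Kat6a counts, which include exons outside the deletion, ranged from 138 to 218 CPM over all genotypes and therefore check no label. Libraries of knockout replicates 1 and 2, both of litter 801, held 1.16% and 1.09% of counts on Gm26917, against 0.145 to 0.529% in the other 14. In transgenic replicate 1 the genes longer than 8000 bases lay 0.32 below their mean over embryos on the log2 scale (median of 778 genes), while the other 15 libraries lay between -0.08 and 0.15.

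Embryonic genes were present in every embryo, the 9 markers of the embryo itself summing to 2205 to 4101 CPM. The trophoblast genes Tpbpa and Ctsq and the decidual gene Prl8a2 were at 0 in all 16, where the lists they belong to summed to 2.76 to 5.16 CPM (10 genes) and 54.7 to 69.5 CPM (8 genes). Of the embryo's own markers, Meox1, a gene of the somites, was lower in knockout transgenic embryos against wild type (log2 fold change -0.19), knockout (-0.21) and transgenic embryos (-0.19), and Sox2 against transgenic embryos (-0.21), each past an edgeR FDR of 0.05. Yolk sac endoderm genes were low and uneven: the 10 genes summed to 17.1 to 59.2 CPM in wild type, 12.8 to 20.3 CPM in knockout, 6.27 to 54.1 CPM in transgenic and 45.3 to 57.8 CPM in knockout transgenic embryos. No gene of the 8 tested in that list passed the test in any genotype comparison.

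Imprinted genes lie in clusters. An imprinting control region, methylated on one parental chromosome, decides which genes of a cluster are read from that chromosome, often through a long noncoding RNA or through a boundary that separates enhancers from promoters. Many paternally expressed members promote growth of the fetus, among them the growth factor gene Igf2, and many maternally expressed members hold it back, among them Igf2r, Cdkn1c, Phlda2 and Grb10. The counts analysed here do not separate the parental alleles, so every value is the sum of both copies, and in whole embryos fewer expressing cells and less RNA per cell cannot be told apart.

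Promoter windows from RefSeq were found for 27 members. They are given as the 250 bases before the start of transcription, each located by an exact match in GRCm39, the build on which the reads were aligned, although the source table is built on GRCm38.p6. CpG dinucleotides, the bases that carry imprinting methylation, are in capitals. Igf2, Mest, Igf2r and Rian are shown as members that passed a test below. Igf2 had 4 windows, with 6, 22, 10 and 1 CpGs, and Mest had 3, with 7, 14 and 14, and for both the window with the fewest annotated untranslated bases is shown, which holds 6 CpGs for Igf2 and 14 for Mest. Igf2r and Rian had 1 window each, with 27 and 0 CpGs.
Igf2 (chr7:142211234-142211483, minus strand): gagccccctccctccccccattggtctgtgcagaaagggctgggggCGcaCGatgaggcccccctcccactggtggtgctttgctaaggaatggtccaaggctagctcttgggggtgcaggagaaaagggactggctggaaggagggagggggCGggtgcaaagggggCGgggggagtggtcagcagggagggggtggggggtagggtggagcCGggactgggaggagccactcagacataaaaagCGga
Mest (chr6:30737799-30738048, plus strand): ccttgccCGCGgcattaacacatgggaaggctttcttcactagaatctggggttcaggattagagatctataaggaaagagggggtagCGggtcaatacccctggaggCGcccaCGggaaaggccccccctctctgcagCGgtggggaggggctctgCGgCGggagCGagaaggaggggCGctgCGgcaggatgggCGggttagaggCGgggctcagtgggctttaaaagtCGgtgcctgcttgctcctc
Igf2r (chr17:12988594-12988843, minus strand): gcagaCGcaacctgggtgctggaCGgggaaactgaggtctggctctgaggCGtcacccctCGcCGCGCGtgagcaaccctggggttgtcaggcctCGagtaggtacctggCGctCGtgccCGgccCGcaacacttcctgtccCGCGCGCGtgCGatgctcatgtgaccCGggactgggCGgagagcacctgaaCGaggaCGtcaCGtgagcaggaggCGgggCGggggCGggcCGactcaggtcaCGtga
Rian (chr12:109570129-109570378, plus strand): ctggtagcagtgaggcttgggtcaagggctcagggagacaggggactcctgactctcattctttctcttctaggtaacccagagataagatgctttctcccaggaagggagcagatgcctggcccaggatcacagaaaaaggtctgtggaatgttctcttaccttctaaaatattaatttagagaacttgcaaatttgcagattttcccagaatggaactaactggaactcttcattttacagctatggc
Taking for each gene its window with the most CpGs, which for Igf2 is another than the one shown, the median was 14 CpGs for the members and 6 for all 27025 genes with a window. The hexamer TGCCGC, recognised when methylated by the imprint-keeping protein ZFP57, was searched on both strands and occurred in 5 of 27 members (Copg2, Meg3, Mest, Plagl1 and Zim1), or 18.5%, and in 9.84% of all genes. The YY1 core GCCATNTT occurred in 1 member, Ube3a (3.7%), and in 4.49% of all genes. H19 and Cdkn1c were not in the promoter table.

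A few members also hold microRNAs. The mature sequences within H19, Igf2 and Mest, the members with the highest counts per length, are shown with the seed (bases 2 to 8) in capitals. The hairpin of miR-675 lay in an exon of H19, and those of miR-483 and miR-335 lay on the same strand within Igf2 and Mest but not wholly inside an annotated exon. All 6 seeds differed.
mmu-miR-675-5p: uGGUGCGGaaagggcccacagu
mmu-miR-675-3p: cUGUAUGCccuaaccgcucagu
mmu-miR-483-5p: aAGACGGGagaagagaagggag
mmu-miR-483-3p: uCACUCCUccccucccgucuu
mmu-miR-335-5p: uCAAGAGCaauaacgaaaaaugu
mmu-miR-335-3p: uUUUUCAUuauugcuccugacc
The count data listed the hairpin genes themselves at 0 (Mir675), 5 to 17 (Mir483) and 1 to 13 (Mir335) counts per embryo. Mature microRNAs were not measured.

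The members spanned a wide range of levels. In RPKM (CPM divided by the gene's length in kilobases) of the wild type embryos, 9 members were above 100, 12 between 10 and 100, 8 between 1 and 10 and 8 below 1. Together they took 1.43 to 1.63% of all counts of an embryo. The median wild type level of the 35 tested members was 19.9 RPKM, against 7.29 RPKM for all tested genes.

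The maternally expressed noncoding RNA H19 led at 1288 ± 31.9 RPKM (SD, n = 4 wild type embryos). It was followed by paternally expressed Mest, a hydrolase gene of mesoderm (679 ± 12.8), by Igf2 (428 ± 7.78), by maternally expressed Grb10, an adaptor that dampens insulin and IGF receptor signalling (366 ± 9.88), and by paternally expressed Nnat (277 ± 31.3), each on the RPKM scale. All neighbouring steps in this order exceeded the SD of either gene. Cdkn1c (170 ± 8.09 RPKM) and Peg10 (169 ± 12.8 RPKM), next to each other in the order below Gnas (178 ± 4.92 RPKM), did not differ beyond their spread.

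At the low end, Ascl2 (0.210 ± 0.135 RPKM) and Slc22a18 (0.207 ± 0.115), maternally expressed neighbours of Cdkn1c, were read at 1 to 17 and 3 to 35 counts per embryo. Snrpn had 1 to 13 counts and Rasgrf1 0 to 10. Snurf, which shares exonic bases with Snrpn on the same strand in the GENCODE annotation, was listed at 0 in all 16 embryos. The part of read assignment in the low Snrpn counts was not tested.

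**Figure D1:**
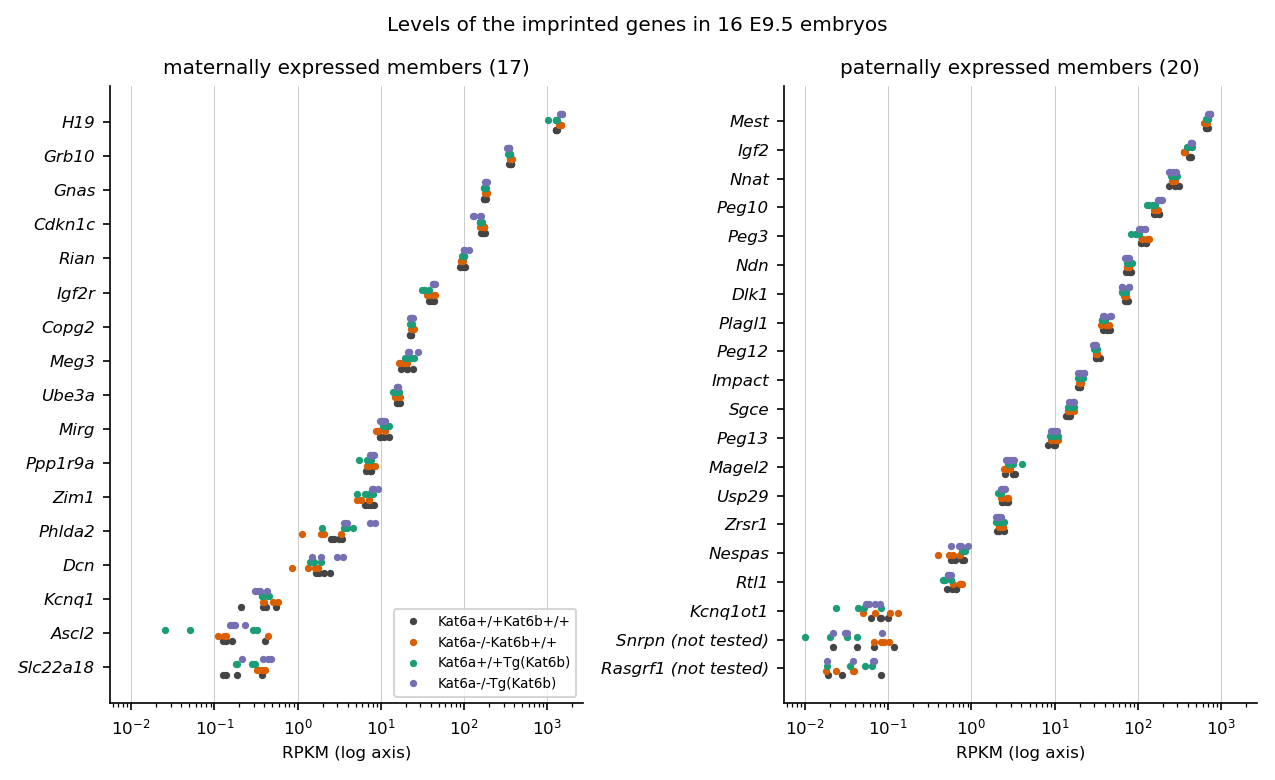
Levels of the 37 members in 16 embryos, in RPKM on a log axis, with maternally expressed genes on the left and paternally expressed genes on the right, ordered by the wild type mean. Each point is 1 embryo, coloured by genotype, and embryos at 0 are not drawn; the levels run from H19 at the top down to Snrpn and Rasgrf1, and for most genes the 4 genotypes lie on top of each other.

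The genotype comparisons asked whether loss of Kat6a, the Kat6b transgene or both moved the imprinted genes. Between knockout and wild type embryos 1 of 35 members was called at an FDR under 0.05, with 1.88% of all tested genes called. Between transgenic and wild type embryos edgeR called 0 members, and 0.14% of all genes. An unadjusted p under 0.05 was found for 10 of 35 members and 1805 of 15679 genes. DESeq2 called 3 there, a count for which the share of all genes called by DESeq2 is not given here. Between knockout transgenic and wild type embryos 1 member was called, against 0.67% of all genes.

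Between knockout transgenic and knockout embryos 7 of 35 members were called, 6 of them higher, against 7.14% of all genes. Between knockout transgenic and transgenic embryos 7 members were called, all higher in knockout transgenic, against 3.41% of all genes. The interaction, which asks whether Kat6a loss acts differently with the transgene, was called for 2 members and for 0.153% of all genes. These comparisons share embryos and are not independent of each other.

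In none of the 5 genotype comparisons did the median fold changes of maternal and paternal members have opposite signs. In knockout against wild type embryos the median log2 fold change was -0.02 for the 17 maternal and -0.02 for the 18 paternal members, and 0.00 for all genes. In knockout transgenic against wild type embryos they were 0.11 and 0.01, with 0.00 for all genes. In knockout transgenic against transgenic embryos the medians were 0.12 and 0.09, with -0.01 for all genes, and 4 maternal and 3 paternal members were called. In knockout transgenic against knockout embryos they were 0.05 and 0.04, with 5 maternal and 2 paternal members called.

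**Figure D2:**
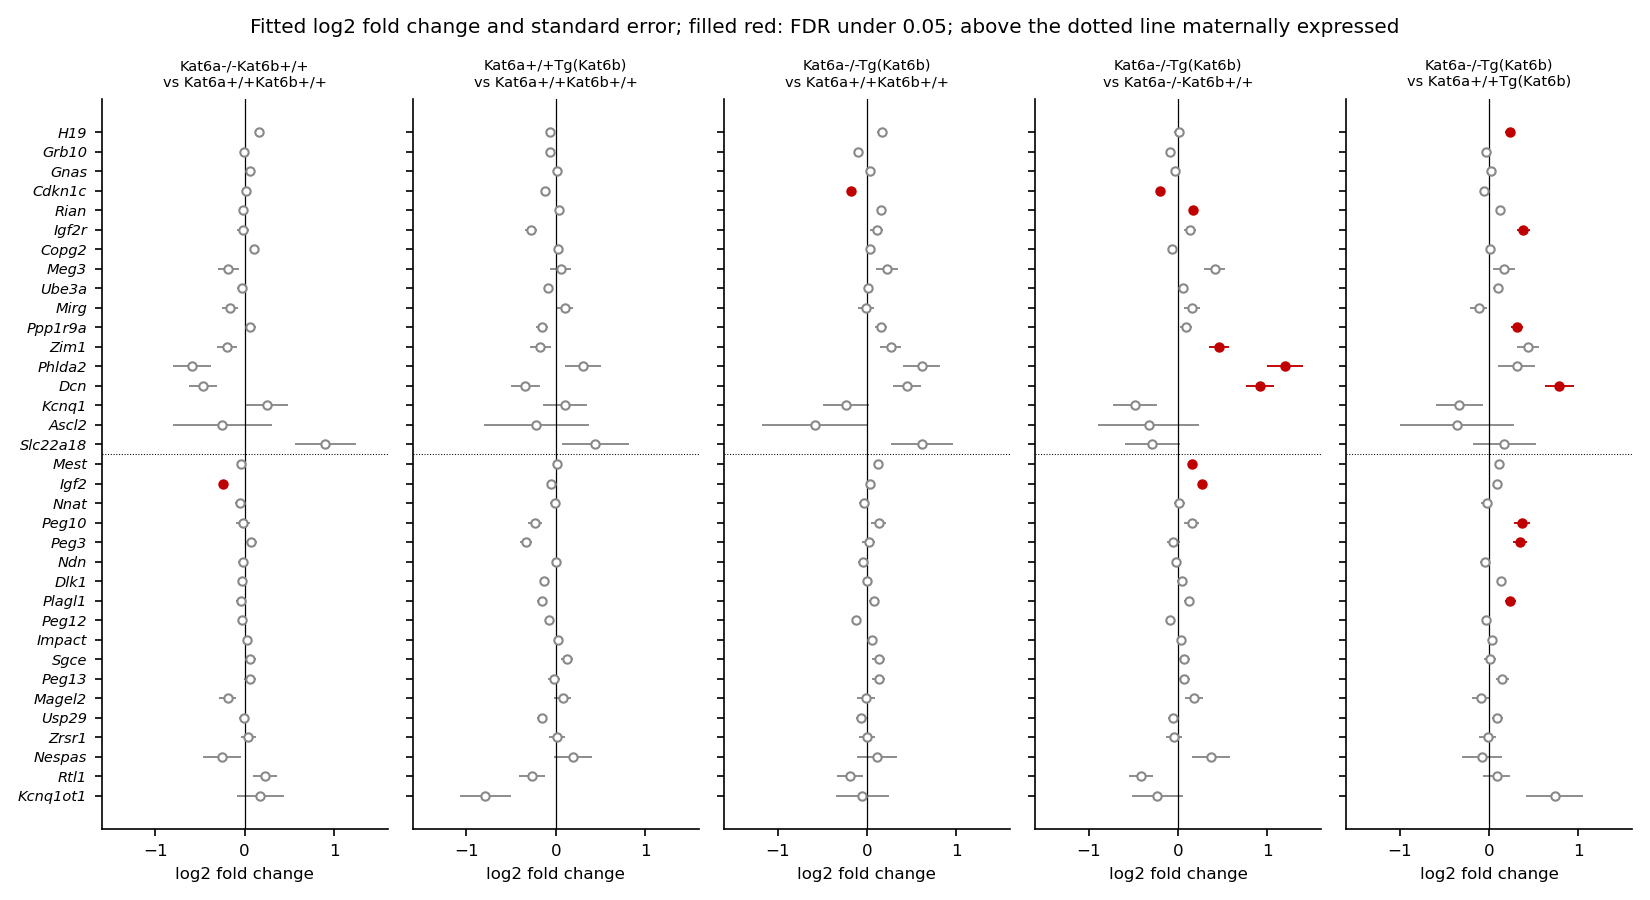
Fitted log2 fold changes of the 35 tested members (points) with standard errors (lines) in 5 genotype comparisons, one panel each. Filled red points passed an FDR of 0.05, and genes above the dotted line are maternally expressed; 1, 0, 1, 7 and 7 members are filled from left to right.

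Igf2, the insulin-like growth factor of the fetus (chr7:142204503-142220694, minus strand), was lower in the knockout embryos. It was read at 1893, 1929, 1977 and 1946 CPM in the wild type embryos and at 1632, 1655, 1623 and 1647 CPM in the knockout embryos. The values were 1865, 2006, 1750 and 1826 CPM in the transgenic embryos and 1963, 1974, 2007 and 1968 CPM in the knockout transgenic embryos. Every knockout embryo lay below every other embryo, while the remaining genotypes overlapped.

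In means, Igf2 fell from 1936 ± 35.2 CPM (SD, n = 4) in wild type to 1639 ± 14.4 CPM in knockout embryos, to 0.846 of the wild type level (log2 fold change -0.24 ± 0.03, edgeR FDR 0.000158). It was higher again in knockout transgenic than in knockout embryos (log2 fold change 0.27 ± 0.03, edgeR FDR 4.8e-05), and the interaction was called (log2 fold change 0.33 ± 0.05, edgeR FDR 0.00209). The knockout transgenic mean, 1978 ± 19.9 CPM, did not pass the test against wild type (log2 fold change 0.03 ± 0.03, edgeR FDR 0.768). Within litters 801 and 803 the log2 difference from the wild type litter mate was -0.20 and -0.24. In litter 801 the knockout embryos were female and the litter mate male. With litter as a block over 12 embryos the log2 difference was -0.22 with an edgeR FDR of 0.102. Without both knockout embryos of litter 801 the call against wild type stood at -0.21 (edgeR FDR 0.0379), and that of the interaction was lost at 0.28 (edgeR FDR 0.171).

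H19, the untranslated RNA that shares enhancers and a control region with Igf2 (chr7:142129262-142133957, minus strand), lay at the other end. H19 was at 2943, 2900, 3051 and 2893 CPM in wild type and 3404, 3395, 3188 and 3264 CPM in knockout embryos. The transgenic embryos had 2955, 3053, 2357 and 2912 CPM and the knockout transgenic embryos 3296, 3413, 3342 and 3421 CPM. Both groups without Kat6a lay above all 8 embryos with it, and transgenic replicate 3 lay far below the rest.

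Against transgenic, H19 rose in the knockout transgenic embryos (log2 fold change 0.24 ± 0.06, edgeR FDR 0.0345), a call that held under 19 of 26 alternatives. Against wild type it missed the threshold in knockout (log2 fold change 0.16 ± 0.05, edgeR FDR 0.13) and in knockout transgenic embryos (log2 fold change 0.17 ± 0.05, edgeR FDR 0.191), although neither group overlapped with wild type. DESeq2 called it in the knockout comparison.

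The ratio of H19 to Igf2 counts does not depend on library scaling. It was 1.55, 1.50, 1.54 and 1.49 in the wild type and 2.09, 2.05, 1.96 and 1.98 in the knockout embryos. It was 1.58, 1.52, 1.35 and 1.59 in the transgenic and 1.68, 1.73, 1.67 and 1.74 in the knockout transgenic embryos. The knockout transgenic embryos thus lay between the knockout embryos and those with Kat6a, overlapping with neither.

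The mean ratio was 1.52 ± 0.0322 (SD, n = 4) in wild type, 2.02 ± 0.0576 in knockout, 1.51 ± 0.115 in transgenic and 1.70 ± 0.0360 in knockout transgenic embryos. Of 6 pairs of genotypes, 5 did not overlap, each with p = 0.0286 in a two-sided exact permutation test, the smallest p that 4 against 4 allow, and 0.0343 after Benjamini-Hochberg adjustment over the 6. The difference between knockout and wild type was 0.41 on the log2 scale, and that between knockout transgenic and wild type 0.16. Between knockout transgenic and knockout embryos it was -0.25. The transgenic and wild type ratios overlapped, with a log2 difference of -0.01 (exact permutation p = 0.943).

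Of the 8 tested yolk sac endoderm genes, 6 had fitted values below wild type in the knockout embryos and 2 above, Cubn and Slc13a4, and none passed the test. Slc13a4, at 2.498 CPM in knockout and 1.45 CPM in wild type embryos, did not overlap between them. Afp, the most abundant of the list in wild type and singled out after its values were seen, was at 8.13 to 44.8 CPM in wild type, 2.32 to 8.60 CPM in knockout and 26.3 to 39.5 CPM in knockout transgenic embryos. It was at 17.3 to 38.8 CPM in 3 transgenic embryos and at 0.536 CPM in transgenic replicate 3, the embryo with the lowest H19 value and the lowest ratio. Wild type replicate 3 had the lowest wild type Afp value, 8.13 CPM, and the highest wild type Igf2 value, 1977 CPM. The part of these genes in the Igf2 and H19 values was not tested. Igf2os, a transcript antisense to Igf2, shares 254 exonic bases with it. It went from 41.5 ± 1.21 CPM in wild type to 31.4 ± 1.86 CPM in knockout embryos (log2 fold change -0.41 ± 0.07, edgeR FDR 0.00149). In knockout transgenic embryos it was at 39.0 ± 2.29 CPM (log2 fold change 0.27 ± 0.07, edgeR FDR 0.019 against knockout). Unlike Igf2, it was not called for the interaction. The library kit does not keep the strand, so reads from the shared bases cannot be told apart.

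**Figure D3:**
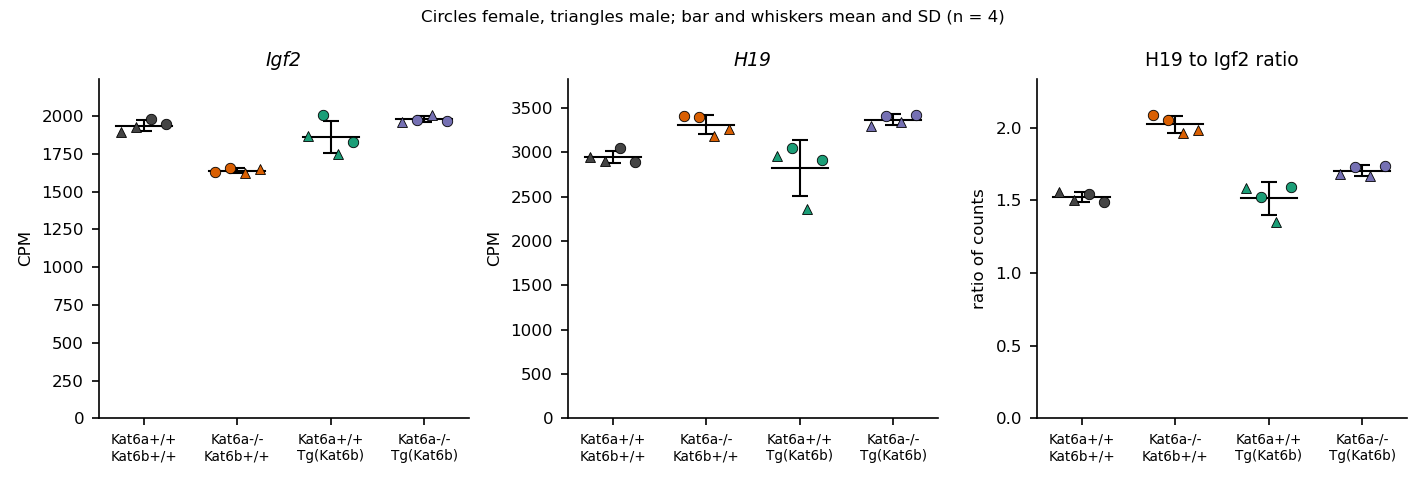
Igf2 (CPM), H19 (CPM) and the ratio of their counts (no unit) in each embryo by genotype, circles for females and triangles for males, with the mean and SD of 4 embryos. The knockout embryos form the lowest group for Igf2, near 1639 CPM, and the highest for the ratio, near 2.02.

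Igf2r, the maternally expressed receptor that clears IGF2 from the cell surface (chr17:12901293-12988614, minus strand), stood at 389, 354, 379.6 and 342 CPM in wild type and 322, 341, 376 and 399 CPM in knockout embryos. It was at 282, 343, 297 and 293 CPM in transgenic and 395, 379, 398 and 380 CPM in knockout transgenic embryos. The knockout transgenic values were all above those of the transgenic embryos (log2 fold change 0.38 ± 0.07, edgeR FDR 0.0177), and they overlapped with those of wild type and knockout embryos.

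The transcript is 8929 bases long, and the lowest transgenic value came from replicate 1, the library poor in long genes. With the length trend of each library held as an offset, an alternative chosen after the data were seen, Igf2r still passed in that comparison. Without transgenic replicate 1 it did not, and 2 members, Dlk1 and Dcn, were called in place of 7. Without knockout transgenic replicate 3 only Mest was called, and without any 1 of knockout transgenic replicates 1, 2 and 4 or knockout replicate 3 the count was 3. Without knockout replicate 1 it was 2 and without transgenic replicate 4 it was 4. The share of all genes called in each of these fits is not given here.

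Cdkn1c, which encodes the cyclin-dependent kinase inhibitor p57 (chr7:143012069-143014806, minus strand), was lower in knockout transgenic embryos. It read 331, 308, 324 and 345 CPM in wild type, 304, 336, 336 and 339.9 CPM in knockout and 314, 297, 304 and 302 CPM in transgenic embryos. In the knockout transgenic embryos it read 313, 251, 299.9 and 252 CPM. The 2 female knockout transgenic embryos were the lowest of all 16, and the 2 males lay among those of the other genotypes.

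The fall passed the test against wild type (log2 fold change -0.18 ± 0.04, edgeR FDR 0.0444) and against knockout embryos (log2 fold change -0.20 ± 0.04, edgeR FDR 0.00577). The ranges overlap in both comparisons, and the fitted values are adjusted for 2 surrogate variables. The first of these was taken beforehand to follow sex, which is not shown here. The call against wild type held under 13 of 26 alternatives and was lost without surrogate variables, whereas that against knockout embryos held under 24 of 26.

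Phlda2, a pleckstrin homology gene that limits growth of the placenta (chr7:143055282-143056887, minus strand), changed by the largest fold among the members called between genotypes. Its values were 2.31, 2.04, 1.88 and 2.54 CPM in wild type and 2.49, 1.54, 0.827 and 1.41 CPM in knockout embryos. They were 3.47, 2.69, 1.44 and 2.88 CPM in transgenic and 2.93, 6.22, 2.65 and 5.42 CPM in knockout transgenic embryos. All knockout transgenic values exceeded those of wild type and knockout embryos, and the 2 female knockout transgenic embryos stood apart above the males.

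Phlda2 rose 2.29-fold from knockout to knockout transgenic embryos (log2 fold change 1.20 ± 0.20, edgeR FDR 0.00132). It missed the threshold against wild type (log2 fold change 0.61 ± 0.20, edgeR FDR 0.2) and, downwards, in knockout embryos (log2 fold change -0.59 ± 0.21, edgeR FDR 0.178). These are 14 to 247 counts per embryo, so counting error alone is large. The 10 trophoblast genes summed to 3.65 to 4.19 CPM in wild type, 3.26 to 3.55 CPM in knockout, 2.76 to 5.16 CPM in transgenic and 4.19 to 4.77 CPM in knockout transgenic embryos, with Tpbpa and Ctsq at 0, and none of the 3 that could be tested was called. Their part in the Phlda2 values was not tested. Without both knockout embryos of litter 801 the log2 fold change was 1.03 (edgeR FDR 0.104), and of the 7 members called between knockout transgenic and knockout embryos 1, Igf2, was called. The share of all genes called in that smaller fit is not given here, so the drop is not particular to the members.

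Grb10 was called in no comparison, with wild type values of 1943, 1942, 1939 and 1838 CPM and knockout transgenic values of 1848, 1820, 1735 and 1804 CPM (log2 fold change -0.10 ± 0.03, edgeR FDR 0.177). Slc22a18, a transporter gene, and Ascl2, a transcription factor gene of trophoblast, carried the widest errors, for example a log2 fold change of 0.90 ± 0.34 for Slc22a18 in knockout against wild type embryos (edgeR FDR 0.196). Kcnq1, the potassium channel gene of the same cluster, was at 0.687 to 1.95 CPM and was called in no comparison.

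Kcnq1ot1, the paternally expressed noncoding RNA that silences this cluster, varied from embryo to embryo. It read 6.83, 5.14, 6.61 and 8.38 CPM in wild type and 4.15, 5.84, 8.80 and 11.1 CPM in knockout embryos. The transgenic embryos gave 1.98, 3.58, 6.76 and 4.24 CPM and the knockout transgenic embryos 4.87, 5.73, 6.72 and 4.48 CPM. All 4 groups overlapped, and the largest fitted change, in transgenic against wild type, missed the threshold (log2 fold change -0.79 ± 0.29, edgeR FDR 0.301), as did the one in knockout transgenic against transgenic embryos (log2 fold change 0.73 ± 0.32, edgeR FDR 0.24). It shares 834 exonic bases with Kcnq1 on the other strand. Its listed length is 83437 bases, and the lowest value came from transgenic replicate 1.

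Decorin (Dcn), a proteoglycan gene of connective tissue whose maternal expression is known from placenta and not from every tissue, lies at chr10:97315275-97358155, plus strand. Its values were 4.35, 3.48, 3.79 and 5.15 CPM in wild type and 1.83, 2.84, 3.37 and 3.72 CPM in knockout embryos. They were 4.05, 2.98, 3.30 and 3.19 CPM in transgenic and 6.20, 3.16, 7.34 and 4.04 CPM in knockout transgenic embryos. The ranges of all 4 genotypes overlapped, and the 2 male knockout transgenic embryos were the highest of all.

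Dcn rose in knockout transgenic against knockout embryos (log2 fold change 0.92 ± 0.16, edgeR FDR 0.00173) and against transgenic embryos (log2 fold change 0.79 ± 0.17, edgeR FDR 0.0131), and its interaction was called (log2 fold change 1.25 ± 0.23, edgeR FDR 0.0181). In knockout and transgenic embryos it lay below wild type without passing (log2 fold change -0.47 ± 0.16, edgeR FDR 0.151 and log2 fold change -0.34 ± 0.16, edgeR FDR 0.414). Within litters 801 and 803 the knockout embryos differed from their wild type litter mate by -0.93 and 0.02 on the log2 scale. Without both knockout embryos of litter 801 the interaction was 1.00 (edgeR FDR 0.212). The interaction was called under 20 of 25 alternatives and lost, among others, without surrogate variables. These are 33 to 195 counts per embryo.

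In the Dlk1-Meg3 cluster the paternal chromosome supplies Dlk1, a Notch-like inhibitor of differentiation, and Rtl1, a gene derived from a retrotransposon, while the maternal chromosome supplies the noncoding RNAs Meg3, Rian and Mirg. Rian read 327, 324, 365 and 357 CPM in wild type and 329, 343, 349.9 and 331 CPM in knockout embryos. It read 363, 363, 339 and 356 CPM in transgenic and 364, 362, 411 and 359 CPM in knockout transgenic embryos. The knockout transgenic values were above all knockout values (log2 fold change 0.17 ± 0.04, edgeR FDR 0.0131) and overlapped with wild type.

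Meg3 lay in the same direction in that comparison without passing (log2 fold change 0.41 ± 0.12, edgeR FDR 0.0667), with 218, 269, 246 and 213 CPM in knockout and 286, 274, 367 and 282 CPM in knockout transgenic embryos. Rtl1 lay in the opposite one, also without passing (log2 fold change -0.42 ± 0.14, edgeR FDR 0.069). Rtl1 shares exonic bases with microRNA genes of the opposite strand, such as Mir433 and Mir127, and the unstranded reads there cannot be told apart. Dlk1 (log2 fold change 0.04 ± 0.05, edgeR FDR 0.644) and Mirg (log2 fold change 0.16 ± 0.09, edgeR FDR 0.313) did not pass either.

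Among the paternally expressed genes Mest had the smallest coefficient of variation within genotypes and the highest level per length (RPKM), while on the CPM scale of wild type embryos Igf2 (1936 ± 35.2) lay above it (1885 ± 35.6). Mest read 1901, 1852, 1927 and 1859 CPM in wild type, 1744, 1849, 1901 and 1838 CPM in knockout and 1849, 1920, 1941 and 1908 CPM in transgenic embryos. The knockout transgenic embryos read 2065, 2037, 1953 and 2073 CPM, above every embryo of the other genotypes. The rise passed against knockout embryos (log2 fold change 0.16 ± 0.03, edgeR FDR 0.00418) and missed against wild type (log2 fold change 0.12 ± 0.03, edgeR FDR 0.0791) and transgenic embryos (log2 fold change 0.11 ± 0.03, edgeR FDR 0.0664).

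Copg2, on the opposite strand beyond Mest, overlaps its annotated exons over 3850 bases in GENCODE. These are 47.7% of the exonic bases of Mest and 34.5% of those of Copg2. The unstranded reads there cannot be told apart, which limits the values of both genes. Copg2 had the smallest spread of all members, 103, 99.6, 100.2 and 102 CPM in wild type and 104, 109.8, 110.5 and 109 CPM in knockout embryos, 104, 103, 99.8 and 104 CPM in transgenic and 99.4, 104, 104 and 108 CPM in knockout transgenic embryos. Copg2 was not called in knockout transgenic against knockout embryos (log2 fold change -0.06 ± 0.04, edgeR FDR 0.334). It was higher in every knockout embryo than in every wild type embryo without passing (log2 fold change 0.10 ± 0.04, edgeR FDR 0.171).

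Peg3, a zinc finger gene read from the paternal copy (chr7:6706882-6733468, minus strand), was lowest in the transgenic embryos. It read 1144, 995, 1129 and 984 CPM in wild type and 1016, 1031, 1169 and 1231 CPM in knockout embryos. It read 750.3, 934, 861 and 870.1 CPM in transgenic and 1101, 995, 1107 and 949 CPM in knockout transgenic embryos. The transgenic embryos lay below all others, including wild type, where edgeR gave log2 fold change -0.33 ± 0.07, edgeR FDR 0.112.

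Against transgenic embryos Peg3 was higher in knockout transgenic (log2 fold change 0.35 ± 0.08, edgeR FDR 0.0327). Peg3 transcripts are 9104 bases long. With the length trend as an offset Peg3 was called in transgenic against wild type as well as in knockout transgenic against transgenic, and without transgenic replicate 1 in neither. The call against transgenic held under 9 of 26 alternatives.

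Its neighbour Zim1, a maternally expressed zinc finger gene, read 22.9, 24.5, 29.3 and 26.8 CPM in wild type and 18.3, 20.4, 25.5 and 25.4 CPM in knockout embryos. It read 18.4, 28.4, 22.4 and 25.1 CPM in transgenic and 28.0, 28.4, 32.9 and 27.5 CPM in knockout transgenic embryos. Zim1 rose in knockout transgenic against knockout embryos, whose ranges did not meet (log2 fold change 0.46 ± 0.12, edgeR FDR 0.0281). The 2 lowest knockout values were those of litter 801, and the call held under 18 of 26 alternatives. Usp29, read from the start shared with Peg3 in the other direction, was at 31.1 to 40.6 CPM and was called in no comparison. It was lower in every transgenic embryo (31.1 to 33.8 CPM) than in every wild type embryo (34.3 to 40.6 CPM) without passing (log2 fold change -0.16 ± 0.06, edgeR FDR 0.28). Its listed length is 14714 bases.

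Peg10, a paternally expressed retrotransposon-derived gene, read 1201, 1071, 1201 and 1039 CPM in wild type and 1082, 1035, 1183 and 1148 CPM in knockout embryos. It read 850.2, 1088, 915 and 1003 CPM in transgenic and 1193, 1302, 1169 and 1267 CPM in knockout transgenic embryos. All knockout transgenic values lay above those of transgenic (log2 fold change 0.37 ± 0.09, edgeR FDR 0.0462), a call that held under 12 of 26 alternatives. Sgce, which is read in the opposite direction from the adjoining start, was at 26.1 to 32.4 CPM and was not called.

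Ppp1r9a, a neurabin gene of the same cluster with tissue-dependent imprinting, read 83.5, 72.4, 83.5 and 81.3 CPM in wild type and 74.3, 79.0, 91.2 and 89.1 CPM in knockout embryos. It read 60.0, 81.7, 78.8 and 74.1 CPM in transgenic and 86.5, 82.2, 90.3 and 80.3 CPM in knockout transgenic embryos, and it passed between these 2 with overlapping ranges (log2 fold change 0.31 ± 0.07, edgeR FDR 0.0254). It is 10808 bases long and lowest in transgenic replicate 1. Its call held under 15 of 26 alternatives and was lost, among others, under the length offset.

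Plagl1, a zinc finger gene known to act on other imprinted genes, read 246, 206, 225 and 226 CPM in wild type and 193, 221, 219 and 238 CPM in knockout embryos. It read 196, 217, 198 and 205 CPM in transgenic and 246, 204, 258 and 209 CPM in knockout transgenic embryos. The difference between these last groups passed with overlapping ranges (log2 fold change 0.24 ± 0.06, edgeR FDR 0.0397). The call held under 12 of 26 alternatives and was lost, among others, under the length offset.

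**Figure D4:**
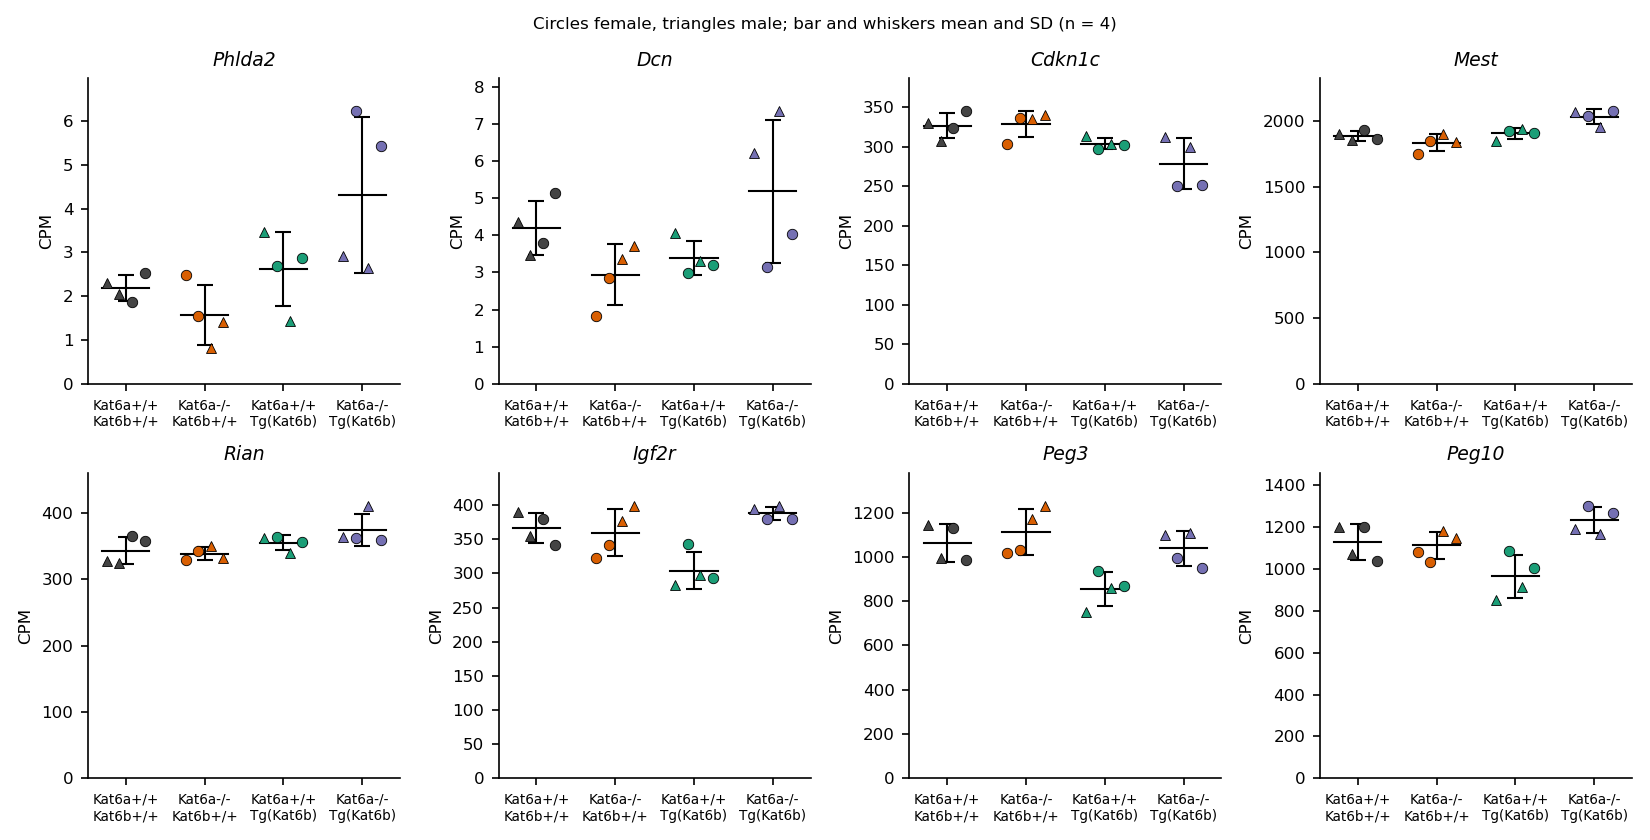
CPM of 8 members called in at least 1 comparison, by genotype, circles for females and triangles for males, with the mean and SD of 4 embryos. In the knockout transgenic group the sexes lie apart for Phlda2, Dcn and Cdkn1c, and in the lower row the transgenic embryos are the lowest group for Igf2r, Peg3 and Peg10.

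The remaining members were called in no comparison. Gnas, which encodes the stimulatory G protein subunit, read 1505, 1469, 1438 and 1412 CPM in wild type and 1551, 1540, 1505 and 1477 CPM in knockout embryos. It read 1519, 1489, 1425 and 1421 CPM in transgenic and 1533, 1458, 1498 and 1509 CPM in knockout transgenic embryos. Nespas, the transcript antisense to Gnas, was at 0.885 to 2.04 CPM and shares 1112 exonic bases with it. In the Snrpn cluster Ndn (117 to 142 CPM), Peg12 (75.9 to 92.8 CPM), Magel2 (11.5 to 18.9 CPM) and maternally expressed Ube3a (148 to 184 CPM) were called in no comparison. Nnat (313 to 420 CPM), Impact (72.6 to 87.9 CPM), Peg13 (39.2 to 52.2 CPM) and Zrsr1 (8.76 to 11.1 CPM) were also never called.

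Single embryos of 1 genotype differed little in most members. The median within-genotype coefficient of variation of the CPM was 7.64% over the 35 tested members and 8.21% over all tested genes. Among members with a mean of at least 1 CPM the steadiest were Copg2 (2.60%), Gnas (2.64%) and Mest (2.64%), and the least steady Phlda2 (35.0%), Kcnq1ot1 (34.3%) and Dcn (25.8%).

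Between the 8 female and the 8 male embryos edgeR called 0 members, with 0.0765% of all genes called, and DESeq2 called 0 as well. These fits held genotype and sex but not litter, and sex followed litter fully in wild type and in knockout embryos. An unadjusted p under 0.05 was found for 7 of 35 members and 722 of 15679 genes. Phlda2 averaged 3.21 CPM in females and 2.13 CPM in males (log2 fold change 0.51 ± 0.19, edgeR FDR 0.998). Dcn lay the other way, at 3.37 and 4.48 CPM (log2 fold change -0.40 ± 0.14, edgeR FDR 0.998).

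Whether neighbours in a cluster vary together was asked over the 16 embryos after subtracting the genotype means from log2 CPM, for 14 pairs. After adjustment over the 14 pairs none passed, the lowest Benjamini-Hochberg p of Pearson's r being 0.164 and that of Spearman's rho 0.271 in permutation tests within genotypes. At an unadjusted p under 0.05 there were 2, Peg3 with Zim1 and Meg3 with Rian.

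Peg3 and Zim1, on opposite parental copies of 1 cluster, gave Pearson's r = 0.719 (permutation p = 0.0117) and Spearman's rho = 0.671 (permutation p = 0.0194). Without the 2 embryos farthest from the median r was 0.63, and with genotype-by-litter means subtracted it was 0.852 over 10 embryos. Meg3 and Rian, both maternal, gave r = 0.656 (permutation p = 0.0271) and rho = 0.574 (permutation p = 0.0405), with r = 0.426 without the 2 farthest embryos and 0.707 over 10 embryos with genotype-by-litter means subtracted. H19 and Igf2 gave r = 0.761 with a permutation p of 0.13 and rho = 0.432 (permutation p = 0.15), and r was 0.164 without transgenic replicates 2 and 3. With genotype-by-litter means subtracted it was 0.88 over 10 embryos, which include both of these. The length trend of the libraries touches long genes together, and its part in these values was not tested.

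**Figure D5:**
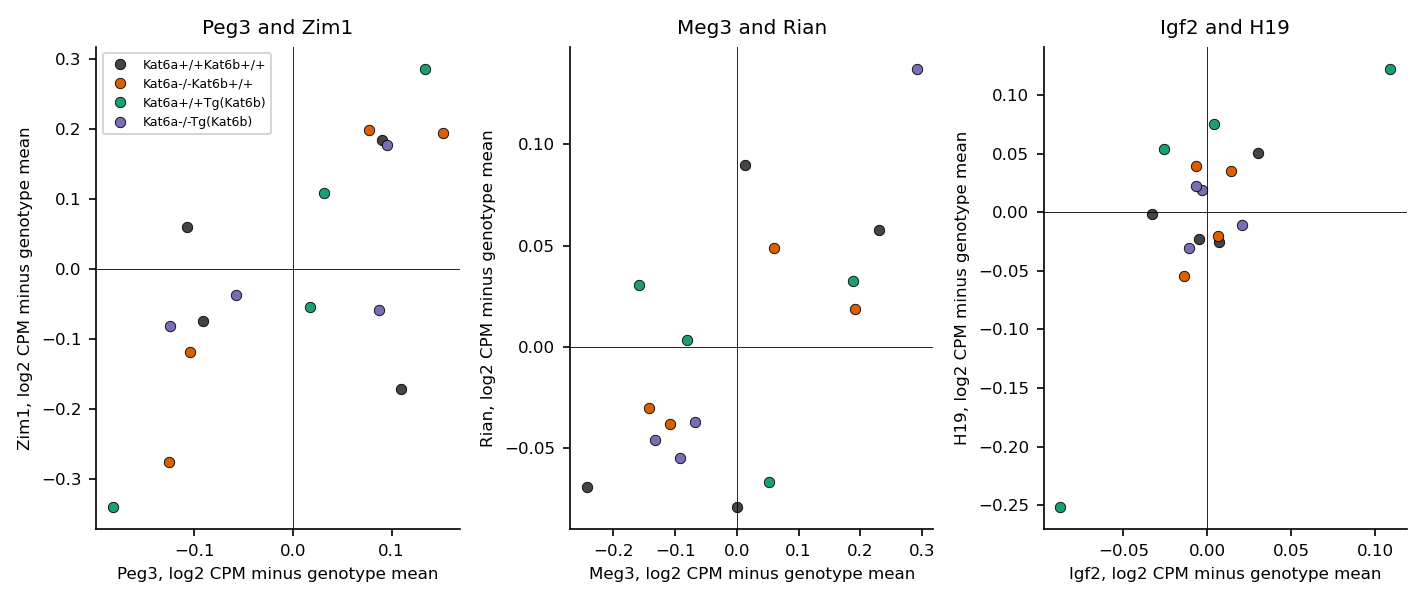
Log2 CPM minus the genotype mean for 3 pairs of neighbouring members, 1 point per embryo, coloured by genotype. The points of Peg3 and Zim1 run upwards (r = 0.719), those of Meg3 and Rian less so (r = 0.656), and those of Igf2 and H19 form a cloud with 2 transgenic embryos at its ends.

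The RNA of genes whose proteins set or keep imprints was read in the same embryos. Of 25 such genes 22 were tested. edgeR called 0 in knockout, transgenic or knockout transgenic against wild type embryos, where 3, 8 and 2 had an unadjusted p under 0.05, as had 2387, 1805 and 1987 of all 15679 genes. In knockout transgenic against knockout and against transgenic embryos 2 each were called, with 7.14% and 3.41% of all genes called. Zfp445, the gene of a zinc finger protein that holds imprints beside ZFP57, was higher in knockout transgenic than in knockout embryos (190.3 ± 9.53 against 170.3 ± 5.70 CPM, log2 fold change 0.20 ± 0.04, edgeR FDR 0.00753), as was the chromatin remodeller gene Hells (log2 fold change 0.14 ± 0.04, edgeR FDR 0.0213). Against transgenic embryos the methyltransferase genes Dnmt3a (log2 fold change 0.14 ± 0.04, edgeR FDR 0.0311) and Ehmt1 (log2 fold change 0.14 ± 0.04, edgeR FDR 0.0425) passed. The Ehmt1 call held under 11 of 26 alternatives and that of Dnmt3a under 15, and Dnmt3a turned to -0.042 under the length offset. The calls of Zfp445 and Hells held under 23 and 21 of 26.

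A further 40 imprinted genes outside the list gave 37 tested. In knockout against wild type embryos 3 were called, with 1.88% of all genes called, Igf2os as given above and, upwards, Pon3, a paraoxonase gene beside Peg10 (log2 fold change 0.46 ± 0.10, edgeR FDR 0.0216), and Ddc, the dopa decarboxylase gene beside Grb10 (log2 fold change 0.37 ± 0.09, edgeR FDR 0.0289). These held under 25, 18 and 17 of 27 alternatives. In knockout transgenic against knockout embryos 5 were called, with 7.14% of all genes called. Igf2os, Cd81 (log2 fold change 0.20 ± 0.04, edgeR FDR 0.00938), Klf14 (log2 fold change 0.98 ± 0.25, edgeR FDR 0.0212) and Slc38a4 (log2 fold change 0.15 ± 0.04, edgeR FDR 0.0212) rose, and Commd1 fell (log2 fold change -0.21 ± 0.05, edgeR FDR 0.0236). They held under 24, 25, 21, 21 and 18 of 26 alternatives, in this order. In transgenic and knockout transgenic against wild type and in knockout transgenic against transgenic embryos edgeR called 0, where 6, 3 and 11 had an unadjusted p under 0.05, as had 1805, 1987 and 2959 of all 15679 genes.

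A list of 15 genes around IGF signalling held a ligand, receptors, adaptors, binding proteins and proteins that bind Igf2 transcripts. Of these, 13 were tested. Those called were 2 in knockout against wild type (1.88% of all genes), 1 in knockout transgenic against wild type (0.67%), 2 in knockout transgenic against knockout (7.14%) and 1 in knockout transgenic against transgenic embryos (3.41%). The gene of the RNA-binding protein IGF2BP1, which binds Igf2 transcripts, rose in knockout against wild type embryos, from 570.1 ± 31.2 to 635 ± 23.8 CPM (log2 fold change 0.15 ± 0.04, edgeR FDR 0.0348), and was lower in knockout transgenic than in knockout embryos (log2 fold change -0.24 ± 0.04, edgeR FDR 0.000901). Irs1, an adaptor of the insulin and IGF receptors, fell in knockout transgenic embryos, to 61.4 ± 5.58 CPM, against wild type at 85.2 ± 6.33 CPM (log2 fold change -0.42 ± 0.06, edgeR FDR 0.00073) and against knockout embryos (log2 fold change -0.41 ± 0.06, edgeR FDR 0.000274). Irs1 kept both calls under all 26 alternatives, none of which can separate the knockout transgenic genotype from its litters. Its relative Irs4 fell in knockout embryos (log2 fold change -0.37 ± 0.08, edgeR FDR 0.0285), and the binding protein gene Igfbp4 was higher in knockout transgenic than in transgenic embryos (log2 fold change 0.17 ± 0.04, edgeR FDR 0.0197). The Irs4 call held under 11 of 27 alternatives, that of Igf2bp1 under 15 of 27 against wild type and 25 of 26 against knockout embryos, and that of Igfbp4 under 24 of 26. The receptor gene Igf1r and the ligand gene Igf1 were not called in any comparison.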

How the data were processed

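The authors extracted RNA from whole embryos, made libraries with a kit that does not mark the strand, sequenced paired ends and aligned them to mm39 (GRCm39) with Rsubread. The deposited values are raw read counts per gene, which the submitters' processing notes credit to featureCounts; its strand setting and the annotation release are not given in the sources used here. From these counts, genes were kept by filterByExpr (minimum count 10, minimum total 15), scaled by trimmed mean of M values and fitted with edgeR 4.0.16 (R 4.3.3; robust quasi-likelihood test, Benjamini-Hochberg FDR under 0.05 over all tested genes) on all 16 embryos with 2 surrogate variables from sva 3.50.0. The sexes were compared with genotype and sex as terms and no surrogate variables, since the first of these was taken beforehand to follow sex. DESeq2 1.42.0 and limma-voom (limma 3.58.1) were alternatives, and the fits were tested on simulated data. CPM and RPKM were computed per embryo with the lengths listed beside the counts. The members and gene lists were chosen with earlier results of these data known. Values in every embryo are given for members called, for H19 and Igf2, for the 2 largest fold changes per genotype comparison and for the 3 largest and 3 smallest coefficients of variation, both among members whose log2 CPM averaged 0 or more. The labels name the embryos as separate animals, and counts of embryos of 1 genotype differed beyond sampling noise in every pair.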

Additional observations from a re-analysis of the deposited data

Results flagged for a closer look

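The interaction term of the edgeR fit, which asks whether Kat6a loss acts differently with the transgene, was called for 2 members. It was called for 0.153% of all genes. For Igf2 it was 0.33 on the log2 scale (edgeR FDR 0.00209) and for Dcn 1.25 (edgeR FDR 0.0181). The call held under 24 of 25 alternatives for Igf2 and under 20 of 25 for Dcn. Neither call held without both knockout embryos of litter 801, the only females of that genotype, and that of Dcn was also lost without surrogate variables. The knockout transgenic embryos came from litters of their own, so their genotype and litter cannot be told apart here.

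Among 144 sets of 4 embryos of 1 genotype, 7 held an embryo far from the other 3 by Dixon's criterion (4.86%, where chance gives about 5%). Grb10 was at 1838 CPM in wild type replicate 4, below the other wild type embryos. Cdkn1c was at 303.7 CPM in knockout replicate 1. Of the 7, 3 came from knockout transgenic replicate 3, with Rian at 410.7 CPM, Meg3 at 367.4 CPM and Zim1 at 32.92 CPM, each above its group. Ascl2, with 1 to 17 counts per embryo, was at 0.6628 CPM in wild type replicate 2 and 0.7192 CPM in knockout replicate 1.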

How the results depend on the processing

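Of the fold changes recomputed for named genes, 912 kept their direction and side of the threshold, 213 lost their call and 1 turned, Dnmt3a in knockout transgenic against transgenic embryos, to -0.042 (edgeR FDR 0.699) under gene length offsets; the cause was not tested. Without surrogate variables the members called were 0 in knockout transgenic against wild type, 4 in knockout transgenic against knockout, 3 in knockout transgenic against transgenic and 1 for the interaction, and with sex in their place 0 in knockout transgenic against wild type, 3 in knockout transgenic against transgenic and 1 for the interaction. DESeq2 called 2 in knockout, 3 in transgenic and 3 in knockout transgenic against wild type and 5 for the interaction. The counts of members in this section are given without the share of all genes called by the same fit. They therefore do not show whether the members moved more than other genes. Limma-voom called 2 in knockout transgenic against wild type, and no filter on low counts gave 2 in transgenic against wild type. Fits of only the groups compared called 2 in knockout against wild type and 2 in knockout transgenic against transgenic. With litter as a block 0 were called in knockout against wild type.

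Chosen after the data were seen, gene length offsets gave 2 in transgenic and 4 in knockout transgenic against wild type. Leaving out the knockout embryos of litter 801, also chosen then, gave 1 in knockout transgenic against knockout, 3 in knockout transgenic against transgenic and 0 for the interaction. Leaving out single embryos gave 1 to 2 members in knockout, 0 to 2 in transgenic and 0 to 3 in knockout transgenic against wild type, 5 to 8 in knockout transgenic against knockout, 1 to 9 in knockout transgenic against transgenic, 1 to 5 for the interaction and 0 to 0 between the sexes. The transgenic against wild type ratio of H19 to Igf2 was 0.021 on the log2 scale within litters and ran from -0.039 to 0.042 without single embryos, the last without transgenic replicate 3, where it turned above 0. That of knockout transgenic against transgenic ran from 0.12 to 0.20.

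The replicate numbers did not pair the embryos: 10 of 24 same-numbered pairs had a correlation over 0.1 (range -0.255 to 0.215), and 4 of 16 embryos correlated best with their own number. With the replicate block 0 members were called in knockout transgenic against wild type, and the ratio differences of 0.41, 0.16, -0.25, 0.17 and -0.42 each had an exact permutation p of 0.125, the smallest that 4 pairs allow. Counts under 20 in Ascl2, Snrpn and Rasgrf1 limit what can be seen there.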
